A study of Homo sapiens with 6 samples.

Results

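The interleukin-1 (IL-1) family and its receptors were examined as 8 genes, the ligands IL1A, IL1B, IL18 and IL33, the antagonist IL1RN and the receptor genes IL1R1, IL1RAP and IL1RL1. All probe sets that the platform annotation assigns to exactly 1 of these symbols were taken, which gave 19 of the 49395 probe sets on the array and 8 of 18265 genes. The cells were A549, an established line from a human lung adenocarcinoma, grown in DMEM with serum and given a lentivirus with a short hairpin RNA. All arrays share this line and the lentivirus. In 3 arrays the hairpin was a negative control (shControl) and in 3 it was directed against TIGD1 (shTIGD1), a gene derived from a transposase. One hairpin sequence was used against TIGD1, and no time after infection is given in the labels. The deposited values are log2 signals, on which a difference of 1 is a doubling, and 6 arrays limit the precision of every value. Arrays of a group are numbered as replicates, but nothing in the labels ties them to separate cultures, so p-values measure only the spread between these arrays, which may be technical.

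IL-1 alpha and IL-1 beta are inflammatory cytokines that bind the same receptor, IL1R1. The bound receptor recruits the accessory protein IL1RAP, and their intracellular domains bring in the adaptor MYD88 and IRAK kinases, which lead to NF-kB and MAP kinases. IL1RN encodes a secreted antagonist that occupies IL1R1 without recruiting IL1RAP. IL-18 and IL-33 are related ligands with receptors of their own, IL1RL1 (ST2) being that of IL-33. Epithelial cells hold IL-1 alpha and IL-33 as alarm signals that are released on injury.

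TIGD1, the targeted gene, did not pass the test. The control-hairpin arrays gave 6.96, 6.93 and 6.85 and the arrays of the TIGD1 hairpin 6.88, 6.84 and 6.86, which overlap, at a log2 difference of -0.06 (SE 0.04, limma adjusted p = 0.389). The groups are therefore called the arrays labelled shControl and the arrays labelled shTIGD1, and every direction is that of the labels. Over all genes, 23.8% passed a limma adjusted p of 0.05, 9.79% as higher and 14.0% as lower, with a median log2 change of -0.04. When the arrays were levelled on hybridization or poly-A spike-in controls, that median moved to 0.18 and 0.29, and the calls became 9294 higher and 376 lower, or 12444 higher and 97 lower. Small falls therefore turn into rises under those scalings, and changes are given as deposited.

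The labelled cell type was checked first. All 6 markers of simple epithelium (KRT7, KRT8, KRT18, KRT19, EPCAM and CDH1) lay above 5.04, the 95th percentile of 360 probe sets of olfactory receptor genes, which is used here as a background level. That level was taken over single probe sets, while each gene was judged by its brightest. Genes with several probe sets can therefore exceed it more easily. EPCAM and CDH1 rose by 0.87 and 0.66 on the log2 scale (limma adjusted p = 0.000629 and 0.000515). The 4 keratin genes did not pass, with differences of 0.00, -0.01, -0.03 and 0.07, and the list median was 0.03. The mean signal of this list was 11.53 to 11.55 on the arrays labelled shControl and 11.78 to 11.83 on those labelled shTIGD1. Among alveolar type 2 markers, 3 of 4 lay above it, and SFTPA1 did not. Of 8 myeloid markers 4 lay above it, with shControl means of 8.21 for CD14, 7.36 for CD68, 6.70 for TYROBP and 5.72 for CSF1R. The others (PTPRC, LYZ, ITGAM and AIF1) lay below it, and PTPRC, the common leukocyte antigen, had a mean of 3.22. ITGAM of this list passed as lower (-0.19, limma adjusted p = 0.0405). The mean log2 signal of the myeloid list was 5.47 to 5.55 on the arrays labelled shControl and 5.40 to 5.45 on those labelled shTIGD1. For 5 endothelial markers, 1 of them above background, it was 4.89 to 4.93 and 4.76 to 4.86. For mast cells 0 of 2 measured markers lay above background (3.11 to 3.43 and 3.41 to 3.57), and for fibroblasts 1 of 6 (4.29 to 4.40 and 4.31 to 4.37). In bulk RNA, fewer cells of a type and less RNA per cell cannot be told apart. The part of these marker differences in the results below was not tested.

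Transcripts of both IL-1 ligands fell and that of their receptor rose. IL1A was 1.76-fold lower and IL1B 1.61-fold lower in the arrays labelled shTIGD1, and IL1R1 was 1.22-fold higher. The antagonist IL1RN, the accessory chain IL1RAP, the IL-33 receptor IL1RL1 and the ligands IL18 and IL33 did not pass. Thus 2 of 8 members passed as lower and 1 as higher, where 14.0% and 9.79% of all genes did. The median over the members was -0.12 on the log2 scale against -0.04 over all genes. The groups did not overlap for 5 of 8 members, and for 42.3% of all genes.

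**Figure D1:**
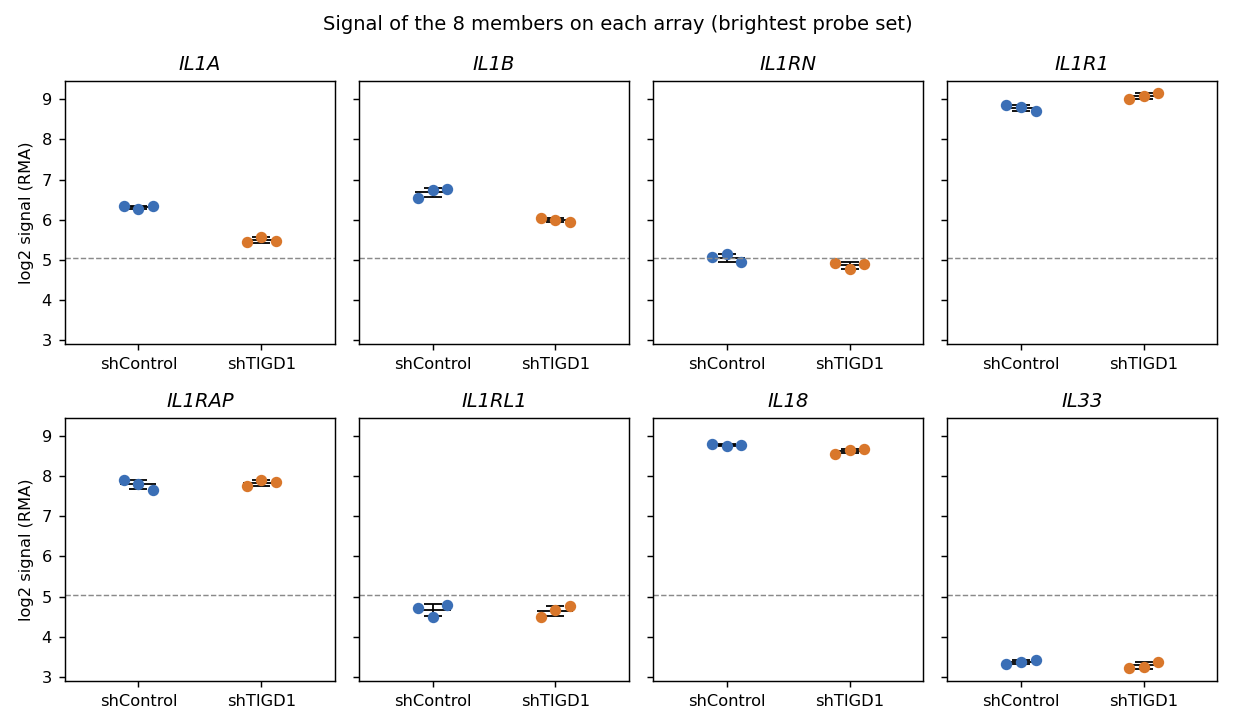
Signal of each of the 8 members on each array, from the brightest probe set of the gene (vertical axis, log2 signal after RMA). Points are arrays, bars are the mean and SD of 3 arrays, and the dashed line is the background level of 5.04. The points of IL1A and IL1B are lower and those of IL1R1 higher in the arrays labelled shTIGD1, and IL1RL1 and IL33 lie below the line in both groups.

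IL1A and IL1B lie next to each other on chromosome 2 and were the members with the largest falls. Their upstream sequences are shown because these genes fell together and their letters can be compared. Each is the 250 bases before a RefSeq transcript start (GRCh38.p14, minus strand for both), chr2:112784494-112784743 for the more upstream of the 2 IL1A starts and chr2:112836780-112837029 for the single IL1B start. Capitals mark matches, on either strand, to TATAAA (the TATA box), to TGANTCA (the core bound by AP-1) and to TTGCNNAA (a core bound by C/EBP factors).
IL1A: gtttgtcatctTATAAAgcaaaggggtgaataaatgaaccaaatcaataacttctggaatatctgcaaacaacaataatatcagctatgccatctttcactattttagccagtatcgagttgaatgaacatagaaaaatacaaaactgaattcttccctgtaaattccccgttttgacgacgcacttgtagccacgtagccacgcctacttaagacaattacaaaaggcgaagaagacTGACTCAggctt
IL1B: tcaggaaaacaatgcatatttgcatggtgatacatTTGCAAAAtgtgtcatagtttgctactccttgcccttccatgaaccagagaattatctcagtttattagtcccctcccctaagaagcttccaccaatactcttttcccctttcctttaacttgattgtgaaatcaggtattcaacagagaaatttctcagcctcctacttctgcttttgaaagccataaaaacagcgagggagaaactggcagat

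The IL1A window held TATAAA with its first base at position -239 and an AP-1 core at position -12, counted from the transcript start. The window of the other IL1A start, which overlaps this one, held AP-1 cores at positions -105 and -55, of which the one at -105 is the same core as that at -12 of the first window. The IL1B window held a C/EBP core at position -215 and no exact match to the letters of the other motifs. Near its end it reads ccataaaaac, which differs from TATAAA, and variants of the TATA box were not searched. In the table of 35116 promoter windows, TATAAA occurred in 10.7%, the AP-1 core in 6.57% and the C/EBP core in 9.05%. The NF-kB consensus, searched on both strands, occurred in 5.21% of windows and in none of the 15 windows of the 7 members found in the table (IL18 was not listed). These letters say nothing of sites outside the windows, and a match is not evidence of binding or of a working TATA box. A window without an exact match can still hold a variant of a motif.

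IL1A, which encodes IL-1 alpha, read 6.33, 6.27 and 6.34 on the arrays labelled shControl and 5.44, 5.58 and 5.47 on those labelled shTIGD1. Every shTIGD1 array was lower than every shControl array, by at least 0.69, and all 6 values lay above the background level. Group means of 6.31 ± 0.04 and 5.49 ± 0.07 (SD, n = 3 each) gave a log2 change of -0.82 (SE 0.05, limma adjusted p = 0.000356). The 95% interval of the fold was 1.63 to 1.91. Among 18265 genes, 10 had a larger fall. IL1A has 1 probe set on the array, so the fall could not be compared with another.

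IL1B, which encodes IL-1 beta, a cytokine made as an inactive precursor that caspase-1 cuts, read 6.54, 6.73 and 6.76 on the arrays labelled shControl. It read 6.04, 5.99 and 5.94 on those labelled shTIGD1. The groups were again separate, with a gap of 0.49, while the SD within the groups was 0.12 and 0.05. The log2 change was -0.68 (SE 0.07, limma adjusted p = 0.00153), or 1.61-fold lower with a 95% interval of 1.44 to 1.80. Only 25 of all genes had a larger fall. Like IL1A, IL1B has a single probe set, so its fall could not be compared with another. The 95% intervals of the log2 changes of IL1A (-0.94 to -0.70) and IL1B (-0.85 to -0.52) overlap, and their difference was not tested. Both falls held under all 16 alternatives tried, at -0.50 or below for IL1A and -0.36 or below for IL1B. Some of these could not alter the size of the fall. With a single probe set, the mean of probe sets returns the same values. The dim filter, trend and robust settings, the replicate block and treat change only the test.

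IL1RN had a brightest probe set near the background level, with signals of 5.07, 5.15 and 4.94 on the arrays labelled shControl and 4.93, 4.77 and 4.91 on those labelled shTIGD1. The groups were separate by only 0.01. The log2 difference was -0.18 with a 95% interval of -0.35 to -0.02, and it did not pass after adjustment over all genes (limma adjusted p = 0.107). The other IL1RN probe set lay below background, between 3.65 and 3.97, with a difference of 0.04 (adjusted p = 0.825 over all probe sets). The sign of the first turned under both control scalings, to 0.03 and 0.14.

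IL18, a ligand that many epithelial cells hold as a precursor, read 8.79, 8.74 and 8.78 on the arrays labelled shControl and 8.56, 8.65 and 8.67 on those labelled shTIGD1. All 3 arrays labelled shTIGD1 were lower, with a gap of 0.07. The difference of -0.14 (SE 0.04, 95% interval -0.24 to -0.04) missed the threshold (limma adjusted p = 0.0530). It passed under 4 of 16 alternatives, with the lowest adjusted p at 0.0115, and its sign turned under the control scalings (0.07 and 0.18). IL18 has 1 probe set, whose suffix marks probes that may match other sequences.

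IL33, which encodes a nuclear alarm cytokine of epithelium and endothelium, had 3 probe sets, all below background. The values of the brightest were 3.34, 3.37 and 3.43 against 3.22, 3.25 and 3.39, and the groups overlapped. Its difference was -0.09 (limma adjusted p = 0.279), and the other probe sets gave -0.05 and -0.09. With all signals below background, these values do not show whether IL33 changed.

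IL1R1, the signalling receptor of both IL-1 ligands, read 8.85, 8.81 and 8.69 on the arrays labelled shControl and 8.99, 9.07 and 9.15 on those labelled shTIGD1. All arrays labelled shTIGD1 were higher, with a gap of 0.14. The log2 change was 0.29 (SE 0.06, limma adjusted p = 0.0173), or 1.22-fold higher with a 95% interval of 1.11 to 1.35. The other IL1R1 probe set was below background, with 4.44, 4.07 and 4.29 against 4.47, 4.99 and 4.85. It also lay higher on every array labelled shTIGD1, by 0.50 on average, but did not pass (adjusted p = 0.0543 over all probe sets). The IL1R1 call ended when shTIGD1 replicate 2 or shTIGD1 replicate 3 was left out (limma adjusted p = 0.0561 and 0.0547).

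IL1RAP, the accessory chain shared by the receptors of IL-1, IL-33 and the IL-36 cytokines, had 4 probe sets with changes on both sides of 0. The brightest, built on the transcript of the membrane form, read 7.90, 7.81 and 7.66 on the arrays labelled shControl and 7.76, 7.91 and 7.85 on those labelled shTIGD1. The groups overlapped, and the difference of 0.05 had a 95% interval of -0.13 to 0.22 (limma adjusted p = 0.687). The probe set built on the transcript of the soluble form, a secreted decoy, gave 4.82, 5.01 and 4.99 against 4.98, 4.99 and 5.19, also overlapping (difference 0.12, adjusted p = 0.344 over all probe sets). The remaining probe sets gave -0.01 and -0.12, and none of the 4 passed.

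IL1RL1 was represented by 5 probe sets, and 2 of these held identical values on every array, so that they count as 1 measurement. All 5 lay below background in both groups. The brightest gave 4.72, 4.49 and 4.78 against 4.50, 4.67 and 4.76, with a difference of -0.02 (limma adjusted p = 0.910). The probe set built on the transcript of the membrane receptor differed by -0.08 (adjusted p = 0.557 over all probe sets).

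One IL1RL1 probe set, built on the transcript of the soluble form that captures IL-33 outside the cell, passed the probe set test although it was dim. Its values were 3.58, 3.57 and 3.83 on the arrays labelled shControl and 4.21, 4.10 and 3.89 on those labelled shTIGD1. The groups were separate, by less than the SD within either group. The difference was 0.40 (SE 0.10, limma adjusted p = 0.0353 over all probe sets), and all 6 values lay under 5.04. The call ended without shControl replicate 1 (adjusted p = 0.103) or 2 (0.0911) and without shTIGD1 replicate 1 (0.0998) or 2 (0.103).

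Over all 19 member probe sets, 2 passed as lower (IL1A and IL1B) and 2 as higher (IL1R1 and the dim IL1RL1 probe set). Over all 49293 probe sets tested, 22.0% passed, 10.6% as lower and 11.5% as higher. Without overlap between the groups there were 8 of the 19, against 40.9% of all probe sets. Of the 19, 11 lay at or below background in both groups, and the 15 that did not pass include all probe sets of IL1RN, IL1RAP, IL18 and IL33. Without shTIGD1 replicate 2, 2 of the 19 passed in place of 4.

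**Figure D2:**
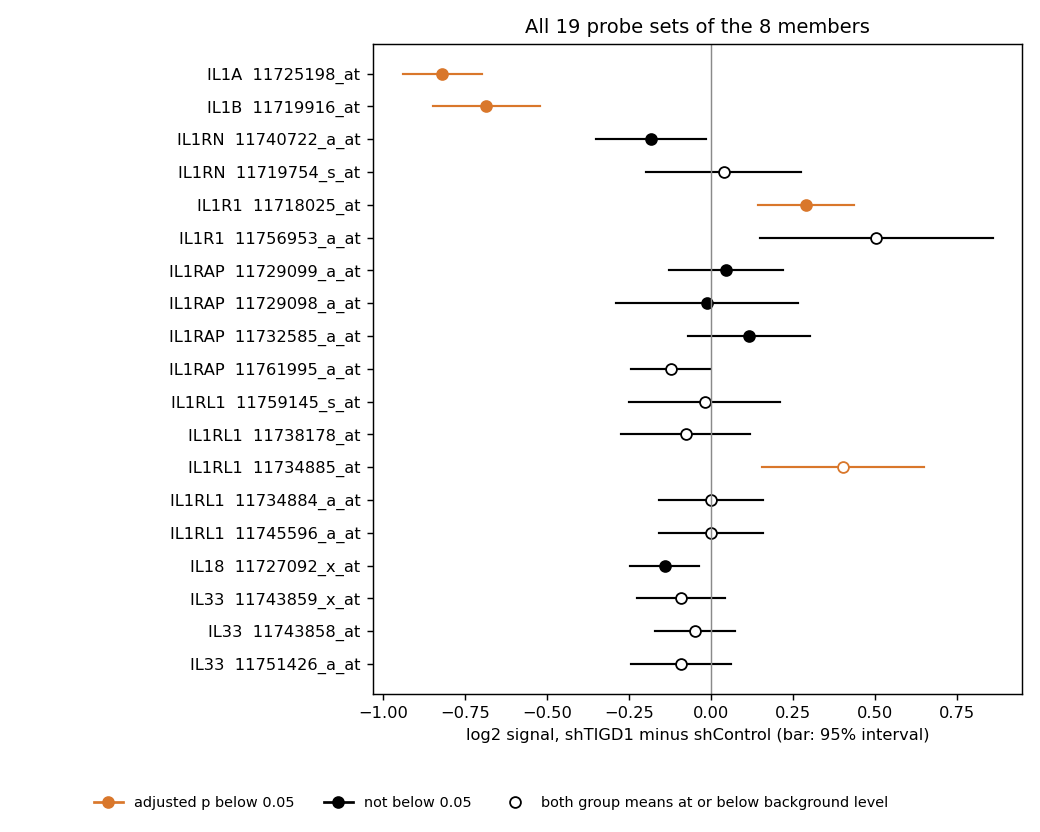
Log2 difference between the arrays labelled shTIGD1 and shControl (horizontal axis) for all 19 probe sets of the members, with 95% intervals. Orange marks an adjusted p below 0.05 over all probe sets, and open circles mark probe sets at or below background in both groups. IL1A (-0.82) and IL1B (-0.68) stand apart on the left, while the probe sets of IL1RAP and IL33 lie about 0.

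The members fall into 2 gene clusters on chromosome 2 and 3 single genes, IL1RAP on chromosome 3, IL33 on 9 and IL18 on 11. The ligand cluster runs through 9 protein-coding genes, IL1A, IL1B, IL37, IL36G, IL36A, IL36B, IL36RN, IL1F10 and IL1RN. The first 2 in this order passed as lower, and the 7 others did not pass. Of these 7, only IL1RN reached the background level, with a shControl mean of 5.05. In the receptor cluster, IL1R2, IL1R1, IL1RL2, IL1RL1, IL18R1 and IL18RAP follow each other, and IL1R1 alone of the 6 passed. Its neighbours IL1R2, a decoy receptor without a signalling domain, and IL1RL2, the IL-36 receptor, each differed by 0.06 (limma adjusted p = 0.496 and 0.670).

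**Figure D3:**
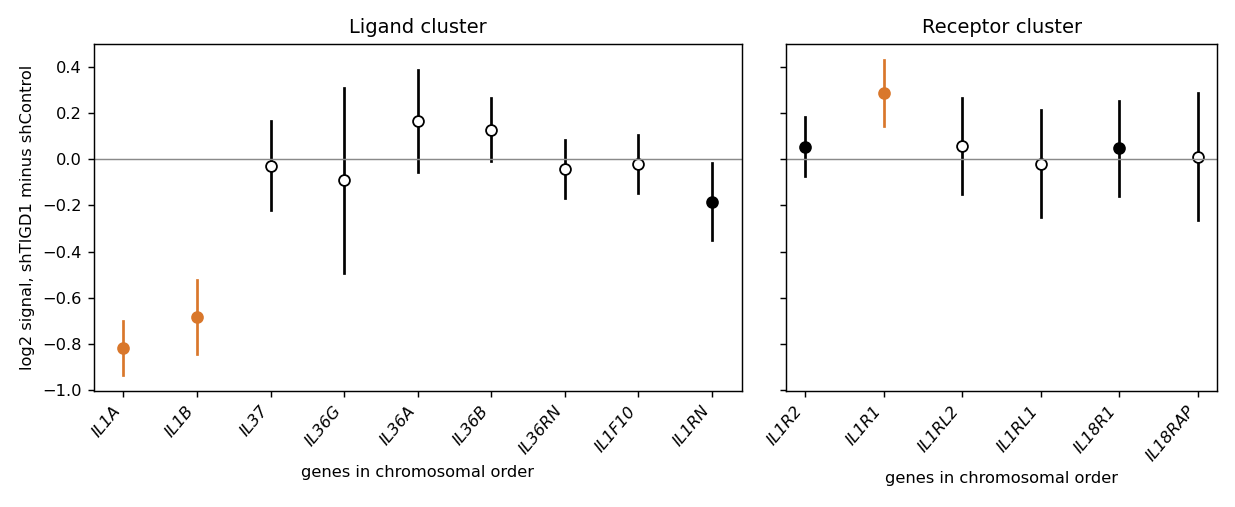
Log2 difference between the arrays labelled shTIGD1 and shControl (vertical axis, with 95% intervals) for the genes of the ligand cluster and the receptor cluster, in chromosomal order. Orange marks an adjusted p below 0.05, and open circles mark genes at or below background in both groups. IL1A (-0.82), IL1B (-0.68) and IL1R1 (0.29) passed, and the intervals of most of the other genes include 0.

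The remaining genes of the pathway were taken from 5 lists with 62 entries, of which 59 were measured. Of these 23 passed, 21 as lower and 2 as higher, a share of 39.0% against 23.8% of all genes. Of the 23, 15 belong to 1 list, the target genes, of which 88.2% passed. In the other lists 0%, 12.5%, 16.7% and 31.25% passed. The lists were chosen with earlier results of these data known, so the joint share is not independent evidence about the pathway. Among the 6 other ligands and antagonists (IL36A, IL36B, IL36G, IL36RN, IL37 and IL1F10), 0 passed with limma and none was above background. The largest difference there was 0.17, for IL36A (adjusted p = 0.245). Among 8 other receptors and the IL-18 binding protein, 1 passed. This was IL18BP, which encodes the secreted protein that neutralises IL-18, with signals of 5.73, 5.71 and 5.67 against 5.56, 5.50 and 5.53 (log2 change -0.17, limma adjusted p = 0.0159). That call ended when shControl replicate 1 (adjusted p = 0.0526) or shTIGD1 replicate 3 (0.0533) was left out and with trend and robust settings (0.109), and its sign turned under both control scalings (0.04 and 0.15).

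Of 12 genes that process or release the cytokines, 1 passed as lower and 1 as higher (median -0.03), against 14.0% and 9.79% of all genes. CAPN1, the large subunit of calpain-1, a protease of the family that cuts the IL-1 alpha precursor, read 8.68, 8.74 and 8.70 on the arrays labelled shControl and 8.39, 8.36 and 8.34 on those labelled shTIGD1. The groups were separate, and the log2 change was -0.34 (SE 0.04, limma adjusted p = 0.00174). Both of its probe sets passed as lower, and with poly-A control scaling the difference shrank to -0.02 (adjusted p = 0.811). The calpain gene CAPN2 did not pass with its brightest probe set (-0.04, limma adjusted p = 0.438). However, 2 of its 5 probe sets passed as higher, and the 5 lay between -0.04 and 0.24. CASP5 passed as higher (0.14, adjusted p = 0.0371) at signals of 2.91 to 3.12, below background. That call ended when any array other than shControl replicate 1 was left out (adjusted p between 0.0843 and 0.0991). It also ended with the mean of its 3 probe sets (0.06, adjusted p = 0.338), which lay between -0.07 and 0.14, and with trend and robust settings (adjusted p = 0.206).

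Between the receptor and the IKK kinases, 4 of 16 measured genes passed as lower and 1 as higher (median -0.07), against the same 14.0% and 9.79% of all genes. IRAK2, a kinase-like protein that sustains signalling after MYD88, changed most. It went from 8.84 ± 0.06 on the arrays labelled shControl to 8.10 ± 0.12 on those labelled shTIGD1 (SD, n = 3 each), a log2 change of -0.74 (SE 0.07, limma adjusted p = 0.00130). Both IRAK2 probe sets passed as lower, and the fall held under all 16 alternatives, with values from -0.81 to -0.42. IRAK1, the kinase recruited with it, went the other way, from 10.09 ± 0.03 to 10.27 ± 0.03 (SD, n = 3 each; log2 change 0.17, adjusted p = 0.0176).

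The adaptor MYD88 fell by 0.24 with its brightest probe set (limma adjusted p = 0.0148), with 4 of its 5 probe sets not past the threshold. With the mean of the 5 the difference was -0.04 (adjusted p = 0.587), and without shControl replicate 1 the adjusted p was 0.0504. TAB3 and TAB1, which encode binding partners of the kinase TAK1, fell by 0.19 and 0.15 (adjusted p = 0.0167 and 0.0468). For IRAK1, TAB3 and TAB1 the call ended when single arrays were left out. IRAK1 lost its call without shControl replicate 3 (adjusted p = 0.0540) and without shTIGD1 replicate 2 (0.0533) or 3 (0.0629). TAB3 lost it without shControl replicate 3 (0.0515) and without shTIGD1 replicate 1 (0.0564) or 2 (0.0544), and with the mean of its probe sets the difference was -0.07 (adjusted p = 0.348). TAB1 kept it only without shControl replicate 2, with adjusted p between 0.102 and 0.133 for the other 5 arrays, and lost it with equal array medians (0.0511) and with trend and robust settings (0.0543). Under poly-A control scaling MYD88 (0.08), TAB3 (0.14) and TAB1 (0.17) turned positive.

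Genes known to be induced by IL-1 stood lower as a group. Of 17 measured targets 15 passed as lower and 0 as higher by limma, where 14.0% and 9.79% of all genes did. Their median log2 change was -0.50 against -0.04 over all genes. Many of them are also induced by other signals through NF-kB, and the list was chosen with results of these arrays known, so its direction is not independent evidence. The chemokine gene CCL20 fell by 1.08, CXCL3 by 0.96, the cytokine gene IL6 by 0.80 and the feedback inhibitor TNFAIP3 by 0.77 (adjusted p = 0.000128, 0.000445, 0.000338 and 0.000723). CSF3 (-0.10, adjusted p = 0.285) and LCN2 (0.01, adjusted p = 0.831) did not pass. LCN2 passed as higher when levelled on hybridization controls (0.23, limma adjusted p = 0.00239) or poly-A controls (0.33, limma adjusted p = 0.00491). Under both scalings most genes that passed were higher.

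**Figure D4:**
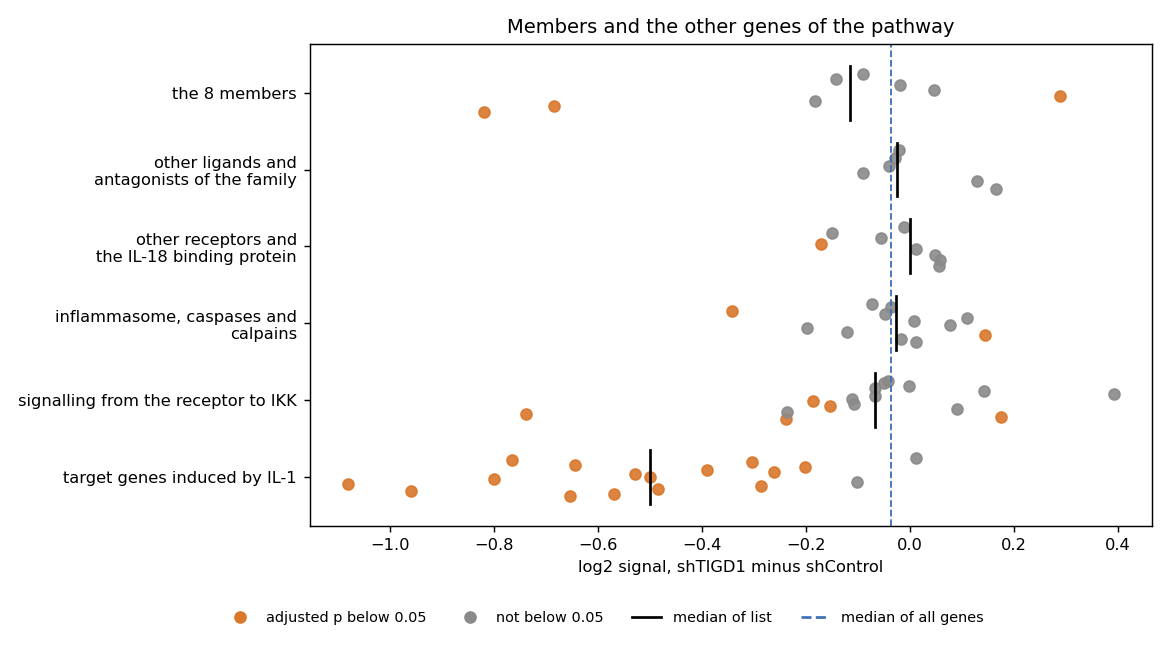
Log2 difference between the arrays labelled shTIGD1 and shControl (horizontal axis) for the 8 members and the 59 measured genes of the 5 other pathway lists, 1 point a gene. Black bars are list medians and the dashed line is the median of all genes (-0.04). The target genes have their median at -0.50, and the median of the members is at -0.12.

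The genes with the most similar pattern were sought among the 10901 genes whose higher group reached 6, by the root mean square distance over the 6 arrays after each gene's own mean had been subtracted. Nearest to IL1A were the chemokine gene CCL5 (0.0512 on the log2 scale), IL6 (0.0531) and TNFAIP3 (0.0645). Their log2 changes were -0.90, -0.80 and -0.77. CCL5 reached 6 only on the arrays labelled shControl (mean 6.03, against 5.13 for shTIGD1). With the mean of its probe sets, the change of CCL5 was -0.57. Nearest to IL1B were the chemokine genes CXCL1 (0.0387) and CCL26 (0.0503) and the cysteine protease inhibitor gene CSTA (0.0516), each with a change of -0.65. Nearest to IL1R1 were ERO1A (0.0221), an oxidase of the endoplasmic reticulum, the zinc finger gene ZNF224 (0.0229) and the phosphodiesterase gene PDE8B (0.0300), with changes of 0.30, 0.28 and 0.25. With 6 arrays in 2 groups, this measure follows mainly the size of the difference between the groups.

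Scaling moved the members together and left the falls of IL1A and IL1B in place. Levelled on the hybridization controls, IL1A changed by -0.60 and IL1B by -0.47 (limma adjusted p = 0.000445 and 0.00226), and on the poly-A controls by -0.50 and -0.36 (adjusted p = 0.000841 and 0.00536). IL1R1 rose by 0.50 and 0.61 under these scalings. IL1RAP passed as higher under both (0.26 and 0.37), and under poly-A scaling 6 of 8 members passed, among them IL1RL1 and IL33, which lie below background. Under that scaling 68.7% of all genes passed, and on the hybridization controls 4 of 8 members passed against 52.9% of all genes, so neither count is particular to the members.

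**Figure D5:**
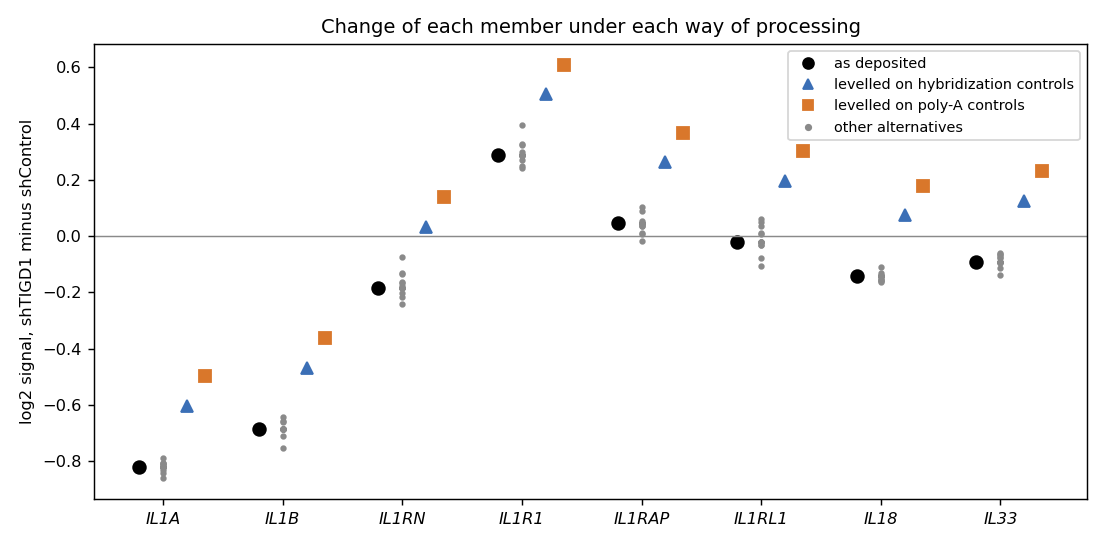
Log2 difference between the arrays labelled shTIGD1 and shControl (vertical axis) of each member as deposited, levelled on hybridization or poly-A controls, and under the other alternatives (grey points). IL1A and IL1B lie below 0 and IL1R1 above 0 throughout, while the control scalings carry IL1RN, IL1RL1, IL18 and IL33 above 0.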

How the data were processed

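The submitters' processing notes name GCOS and RMA for the deposited log2 values, 1 per probe set on every array. Tool versions and the genome build are not stated there, and base 2 was taken from how far the values reach. RMA makes the distributions of the arrays alike, so a shift common to most genes is removed before deposit. Array medians lay between 6.27 and 6.28.

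Of 49395 probe sets, 102 controls were left out, and 45336 had exactly 1 symbol in the platform annotation. Each gene was represented by its brightest probe set over all arrays (18265 genes), and all 49293 probe sets were also tested singly. The 2 groups were tested in limma 3.58.1 (R 4.3.3; lmFit, then eBayes), two-sided, and p-values were adjusted after Benjamini and Hochberg over all genes or all probe sets. An exact permutation test of 3 arrays against 3 cannot go below 0.1. The test was tried on simulated data with independent noise, which says nothing of the calls in these arrays. Tables were made with Python 3.11.15 and pandas 2.3.3.

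The members, the lists and the rule for named genes were chosen with earlier results of these data known. Named were the members, TIGD1, up to 4 passed genes per list, by size of change (or the 1 with the largest difference where none passed), the 3 nearest genes to each member that passed, and markers. TAB1, CAPN2, CSF3 and LCN2 were named after their values were seen. The olfactory receptor background level was chosen after the data were seen. IRAK4, CSF2, BIRC3, TPSAB1 and MS4A2 had no probe set with 1 symbol under those names.

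Same-numbered arrays of the groups did not deviate together (correlations of -0.01, -0.10 and -0.07), so they were not treated as pairs. Alternatives were the mean of probe sets, repeated quantile normalization, equal medians, control scalings, a filter on dim genes, trend and robust settings, array weights, a replicate block, the omission of each array in turn, and limma's treat at 1.2-fold. Promoter windows are RefSeq sequences of GRCh38.p14.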

Additional observations from a re-analysis of the deposited data

How the results depend on the processing

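The falls of IL1A and IL1B kept their direction and passed under all 16 alternatives, while IL1R1 kept its direction and passed under 12. The dim filter, trend and robust settings, the replicate block and treat leave a log2 change as it is, so they bear only on the calls. The number of genes past the threshold moved from 4345 to 9670 with hybridization controls, 12541 with poly-A controls, 262 with treat against 1.2-fold and 2742 to 3389 without single arrays. The members past it moved from 3 to 6 with poly-A controls and stayed at 2 to 3 without single arrays. Member probe sets moved from 4 to 10 and 15 with the controls and to 2 to 4 without single arrays. How many of all probe sets passed under the control scalings was not counted. The 10 and 15 are therefore not read as a result about the members. Pathway genes moved from 23 to 39 of the 59 measured under either control scaling. Of all genes, 52.9% passed there with hybridization controls and 68.7% with poly-A controls, so that count is not particular to the pathway. Pathway genes lay at 19 to 24 without single arrays. With the replicate block, which takes the replicate number as a factor although it does not pair the arrays, 2388 genes, 2 members, 2 member probe sets and 17 pathway genes passed. With hybridization and poly-A controls, in that order, the signs turned for IL1RN (0.032 and 0.14), IL1RL1 (0.20 and 0.30), IL18 (0.074 and 0.18), IL33 (0.13 and 0.23), IL18BP (0.044 and 0.15), TAB3 (0.030 and 0.14), TAB1 (0.062 and 0.17), CSF3 (0.11 and 0.22) and TIGD1 (0.16 and 0.27, adjusted p = 0.0181 and 0.0121), and with poly-A controls for MYD88 (0.083). IL1RL1 also turned with the mean of its probe sets (0.061) and repeated quantile normalization (0.0062), which turned LCN2 as well (-0.013). Without single arrays, values lay between -0.018 and 0.10 for IL1RAP, -0.11 and 0.052 for IL1RL1, and -0.00059 and 0.021 for LCN2. The causes were not tested. Signals near or below background limit what IL1RN, IL1RL1 and IL33 can show.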
